A study of Homo sapiens and Mus musculus with 92 samples.

Results

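The genes described here build and feed the DNA replication fork: 41 genes for origin licensing, the replicative helicase, the DNA polymerases and primase, the sliding clamp and its loader, single-strand DNA binding, Okazaki fragment maturation and the last steps of deoxynucleotide synthesis. They were chosen by name and role from the 28103 genes of the count tables, with no measured value in the rule but with earlier results of these data known, and their levels were compared between knockdown (KD) and control cells within each of the 2 RNA-seq experiments. All libraries are of polyadenylated RNA of the HEL cell line, a human erythroleukemia line that the labels call erythroblast. The MLL1 experiment holds 3 libraries of MLL1 KD cells and 3 of control cells, and the AF9 experiment holds 2 libraries of AF9 KD cells and 2 of control cells of its own. Knockdown was by lentiviral shRNA #1 of each gene with puromycin selection. The controls carry the genotype WT in the labels, and the study's methods describe them as transduced with a control shRNA. A single shRNA per gene was used, and no source says that the libraries of a group came from separate cultures, so that p-values measure only the spread between these libraries, which may be technical.

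Replication starts in G1 phase, when the origin recognition complex (ORC), CDC6 and CDT1 load the MCM2 to MCM7 ring onto DNA as an inactive helicase, and geminin (GMNN) blocks CDT1 afterwards. In S phase CDC45 and the GINS complex join the ring to form the active helicase. DNA polymerase alpha with primase then lays down primers, polymerase epsilon extends the leading strand, and polymerase delta, held by the PCNA clamp that the RFC complex loads, extends the lagging strand. Ribonucleotide reductase (RRM1, RRM2), thymidylate synthase (TYMS) and thymidine kinase (TK1) supply the deoxynucleotides. Many of these genes are transcribed in a wave at the G1 to S transition under E2F transcription factors, which makes them the usual readout of S phase entry in dividing cells, leukemia lines among them.

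Promoters are shown because E2F factors, named above, bind short sequence forms there. RefSeq promoter windows of GRCh38.p14, from 250 bases before to 50 bases after a transcription start, were given for 35 of the 41 genes in 45 windows. MCM4, MCM5, GINS4, POLD3, RPA2 and RPA3 had no window. The E2F forms searched on both strands were TTCCCGC as the first form, TTCGCGC as the second form, TTGCCGC as the third form and, last of these, TTGGCGC. At least 1 of them was found in 64.4% of the windows, against 12.97% of all 35116 promoters and 19.1% of the promoters of genes tested in the AF9 experiment. The share was 52.2% for genes of the replication stress response, 43.6% for replication partners and 26.3% for mitosis genes, which are lists used below. A CCAAT form was found in 60.0% of the members' windows, against 34.6% of all promoters and 71.1% of the windows of the mitosis genes. The CHR element of genes expressed in G2 and M phase, searched as TTTGAA and as the variant form TTCGAA, was found in 4.44% of the windows, against 16.4% of all promoters and 65.8% of the 38 windows of the mitosis genes used below as a comparison. Among the E2F matches, 12 of 47 overlapped another E2F match and 6 overlapped a CCAAT match. A match is a description of letters and says nothing of whether a factor binds there.

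The stretches below belong to 6 of the 9 members that are given library by library further on. E2F and CCAAT matches are in capitals, the strand is that of the gene, and annotated exon sequence is left out except for 30 bases around the matches of PRIM1 and TK1. MCM6 at chr2:135876444-135876603, minus strand, holds 2 pairs of overlapping E2F matches on opposite strands and 2 CCAAT matches:
MCM6: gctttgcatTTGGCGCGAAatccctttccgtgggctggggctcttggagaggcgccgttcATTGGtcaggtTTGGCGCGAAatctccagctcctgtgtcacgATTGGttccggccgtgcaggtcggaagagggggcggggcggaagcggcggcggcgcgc
RRM1 at chr11:4094455-4094684, plus strand, holds 1 match of each kind:
RRM1: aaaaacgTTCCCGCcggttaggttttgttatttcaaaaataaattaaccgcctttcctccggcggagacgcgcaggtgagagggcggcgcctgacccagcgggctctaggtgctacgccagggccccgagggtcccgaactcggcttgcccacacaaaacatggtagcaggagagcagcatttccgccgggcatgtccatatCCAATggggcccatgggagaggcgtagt
POLE at chr12:132687377-132687536, minus strand, holds an E2F match overlapping a pair of CCAAT matches on opposite strands:
POLE: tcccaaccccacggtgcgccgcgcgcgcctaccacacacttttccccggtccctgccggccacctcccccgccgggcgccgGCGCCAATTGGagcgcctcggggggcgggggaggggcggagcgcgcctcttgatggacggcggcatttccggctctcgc
PRIM1 at chr12:56752329-56752358, minus strand, and TK1 at chr17:78187053-78187082, minus strand, hold an E2F match close to the start:
PRIM1: cggccgtgctgTTCCCGCCAATtcctgtgg
TK1: tggtttaaagcggtcggcGCGGGAAccagg
POLD1 at chr19:50384073-50384203, plus strand, is shown because its windows, like those of PRIM2 and FEN1, hold neither form:
POLD1: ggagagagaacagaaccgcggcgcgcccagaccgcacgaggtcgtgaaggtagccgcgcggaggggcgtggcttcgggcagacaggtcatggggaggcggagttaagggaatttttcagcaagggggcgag

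The MLL1 libraries held 6966345 to 10380241 counts each and the AF9 libraries 12278989 to 14232408. The targeted genes were lower in the KD libraries: KMT2A, which encodes MLL1, was at 1256 to 1321 CPM (counts relative to the library total, scaled with TMM factors) in the control cells and 812 to 834 CPM in the MLL1 KD cells (log2 fold change -0.66, adjusted p = 0.0724, and 3.473e-07 with the replicate number as a block), and MLLT3, which encodes AF9, fell from 527 to 548 CPM to 92.5 to 107 CPM in the AF9 KD cells (adjusted p = 3.221e-08). KMT2A also fell in the AF9 KD cells, from 455 to 474 CPM to 372 CPM in both libraries (adjusted p = 0.02), and MLLT3 was at 188 to 228 CPM in the controls and 147 to 206 CPM in the MLL1 KD cells (log2 fold change -0.28, adjusted p = 0.615, and 0.0175 with the block). The erythroid and megakaryocyte factors GATA1, TAL1, KLF1 and ITGA2B were at 92.2 CPM or more in every library, whereas the T cell, B cell and liver markers CD3E, MS4A1 and ALB were at 0.432 CPM or less. The epithelial marker EPCAM was at 0.284 CPM or less in the MLL1 experiment and at 1.39 to 3.27 CPM in the AF9 experiment. The fibroblast collagens COL1A1 and COL1A2 reached 8.97 and 7.13 CPM in MLL1 KD replicate 3, and the 6 markers of other cell types used here summed to 16.5 CPM there with 3 of the 6 at 0, against 0.792 to 3.52 CPM in the other libraries. Without that library the median log2 fold change of the members in MLL1 KD cells, given below, was -0.15. In these bulk libraries, fewer cells in S phase and less RNA per cell cannot be told apart.

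All 41 genes were expressed in the control cells and passed the filter of a mean level of 1 in TPM in both experiments. They had 22 to 5557 counts per gene and library in the MLL1 experiment and 175 to 11646 counts in the AF9 experiment. TPM is a read count scaled by library size and by the merged length of all annotated exons of a gene. That length can far exceed 1 transcript, as for MCM4 with 9852 against 4062 bases. Comparisons of TPM between genes therefore depend on the length used. Per length, the lowest level in the controls of the MLL1 experiment was that of RPA3, the small subunit of the single-strand binding complex, at 4.48 ± 0.968 TPM (SD, n = 3), followed by GINS3 at 13.2 ± 4.90 TPM. The highest by this measure were the licensing factor CDT1 at 385 ± 57.3 TPM, MCM3 at 375 ± 84.8 TPM, MCM2 at 325 ± 82.6 TPM and the clamp PCNA at 324 ± 113 TPM. In the controls of the AF9 experiment, levels ran from 12.96 ± 1.13 TPM for GINS3 (SD, n = 2) to 650 ± 39.2 TPM for PCNA and 608 ± 1.41 TPM for MCM3. Subunits of 1 complex could lie far apart or close together. The catalytic subunit of polymerase alpha, POLA1, was at 22.2 ± 2.58 TPM and its partner, the primase subunit PRIM1, at 117 ± 6.46 TPM in the controls of the MLL1 experiment, whereas the clamp loader subunits RFC1 and RFC2 were at 89.9 ± 3.26 and 87.6 ± 19.8 TPM. CDT1 and RPA3 stood far apart between the 2 sets of controls. CDT1 was at 79.1 ± 16.4 TPM and RPA3 at 52.4 ± 2.37 TPM in the AF9 controls. The 2 tables were scaled separately, and this difference between them was not tested.

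**Figure D1:**
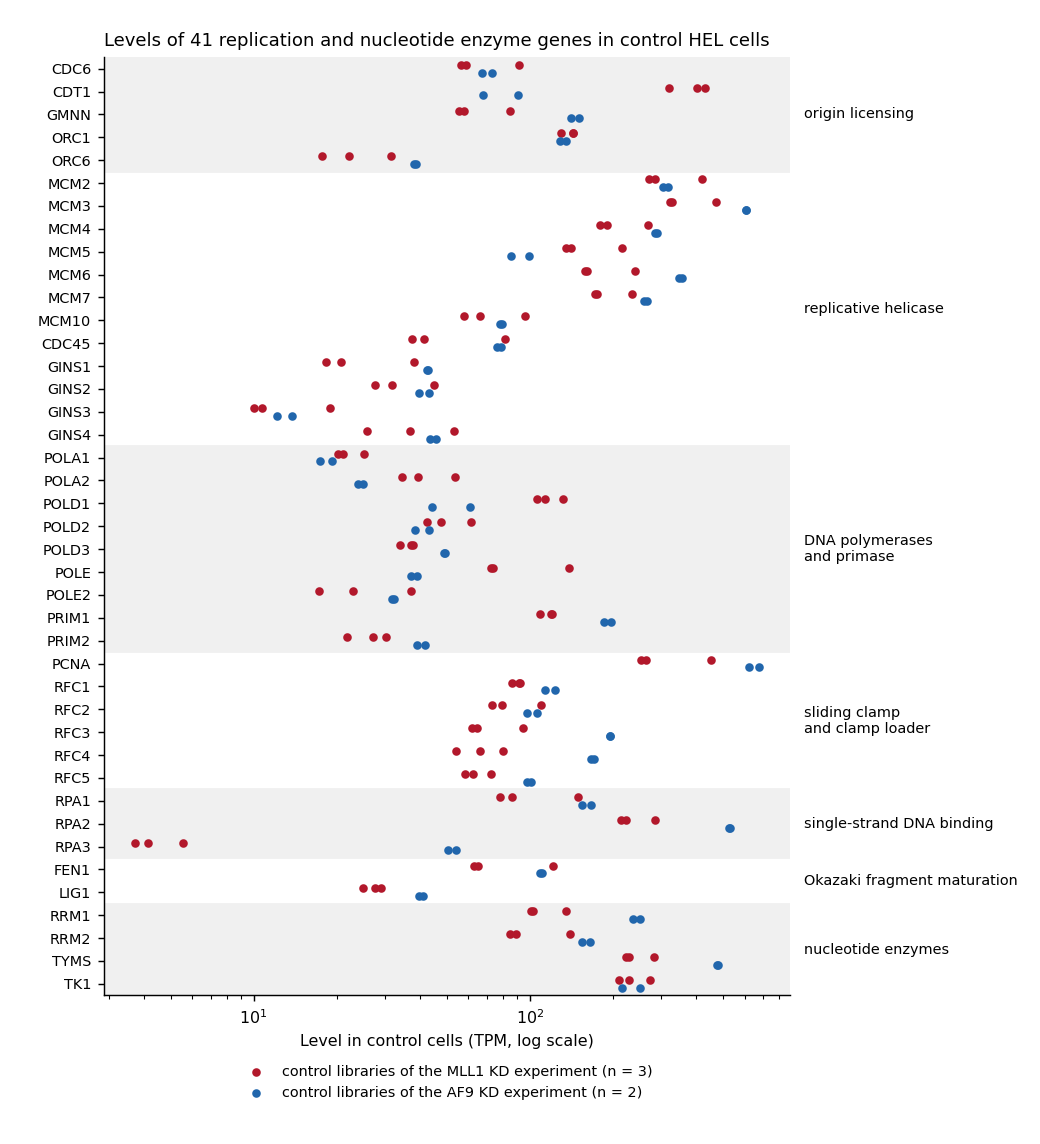
Level of each of the 41 genes in each control library, in TPM on a log axis, grouped by role, with the 3 control libraries of the MLL1 experiment in red and the 2 of the AF9 experiment in blue. Levels span 4.48 TPM for RPA3 to 385 TPM for CDT1 as means of the MLL1 controls and 12.96 TPM for GINS3 to 650 TPM for PCNA as means of the AF9 controls, and the rightmost red point of most genes is control replicate 1.

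In MLL1 KD cells most replication genes lay below the control cells by a small amount, and none passed the test in the unpaired fit. The median log2 fold change of the 41 genes was -0.22, against 0.01 for all 14393 genes tested, and 36 of the 41 values were below 0. No member had an adjusted p under 0.05 in edgeR's test or in DESeq2. In edgeR 3 of the 41 members, RRM1, RFC5 and TK1, had an unadjusted p under 0.05, where 1435 of all 14393 genes tested did. With a fold change of 1.5 or more as a second condition, under which a gene is said to be called, the members again numbered 0, against 0.0625% of all genes tested. Replicate number 1 stood apart in both groups: its control library was above the mean of the other 2 control libraries for 37 of the 41 genes, with a median log2 difference of 0.47, and its MLL1 KD library was above the other 2 KD libraries for 35 genes, also with a median of 0.47. Over all genes tested both medians were close to 0. Without control replicate 1 the members' median log2 fold change in MLL1 KD cells was -0.08, and without MLL1 KD replicate 1 it was -0.42.

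Replicate 1 deviated in the same way in both groups, so the comparison was also made within same-numbered pairs. Replicates 2 and 3 did not match more closely by number than across numbers, so their pairing rests on the titles alone. Within pairs 1, 2 and 3 the members' median log2 difference between the MLL1 KD and the control library was -0.25, -0.21 and -0.24, and 30, 34 and 34 of the 41 genes were lower in the KD library. In all 3 pairs 23 members were lower, or 56.1% of them, against 23.1% of all genes tested. With the replicate number as a block, 14 members fell at an adjusted p under 0.05 and none rose, which is 34.1% of the members against 6.94% of all genes tested that fell and 6.64% that rose. These were MCM2, MCM3, MCM4, MCM5, MCM6, MCM7, GINS1, RFC4, RFC5, POLA1, POLA2, POLD1, RRM1 and TK1. None of the 14 reached a fold change of 1.5 in that fit. In replicates 2 and 3 alone, 17 members fell and none rose, against 9.00% and 9.27% of all genes tested, and 13 of the 14 were among them, POLA2 being the exception.

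**Figure D2:**
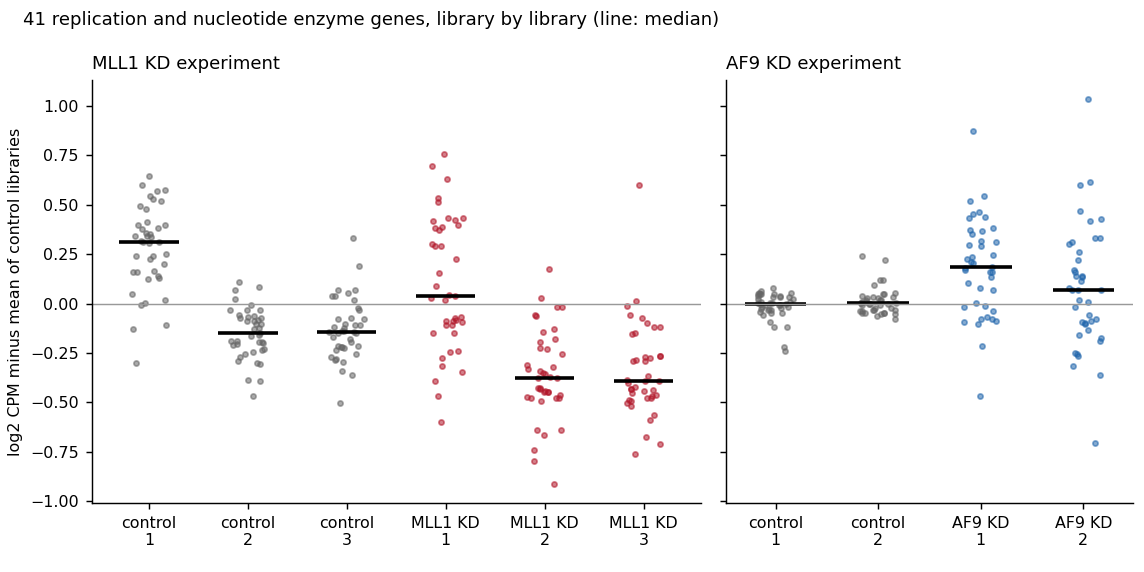
Each point is 1 of the 41 genes, plotted as its log2 CPM in a library minus its mean over the control libraries of that experiment, and the black line is the median of the library. In the MLL1 experiment control replicate 1 lies at 0.31 and MLL1 KD replicate 1 at 0.04, while the other control libraries lie at -0.15 and -0.14 and the other KD libraries at -0.38 and -0.39, and in the AF9 experiment the AF9 KD libraries lie at 0.18 and 0.07.

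The MCM ring made up the largest block of these changes. MCM5 was at 392, 261 and 269 CPM in the control libraries and at 288, 193 and 189 CPM in the MLL1 KD libraries. The KD library of replicate 1 lay above 2 of the control libraries, so that the groups overlapped, but within each pair the KD library was lower. The log2 fold change was -0.46 ± 0.22 (SE; adjusted p = 0.569), and -0.46 ± 0.07 with the block (adjusted p = 0.000208). MCM6 was at 249.2, 177 and 171 CPM in the controls and at 182, 126 and 137 CPM after MLL1 KD, with a log2 fold change of -0.43 ± 0.20 (SE; adjusted p = 0.553, and 0.0012 with the block). The other ring subunits ranged from -0.39 for MCM4 to -0.22 for MCM2. The GINS subunits were less even. GINS3 was at 24.1, 13.6 and 14.4 CPM in the controls and 18.7, 8.79 and 10.2 CPM in the KD libraries, on 62 to 189 counts per library. It had the lowest log2 fold change of all members, -0.46 ± 0.35 (SE), and an adjusted p of 0.753, or 0.0626 with the block. GINS2 and GINS4, with 0.06 and -0.07, lay within their SE of 0.

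Among the other roles, the clamp loader subunit RFC5 and the large subunit of ribonucleotide reductase RRM1 were the members whose groups separated most clearly. RFC5 was at 59.0, 53.5 and 49.5 CPM in the control cells and at 41.1, 39.4 and 41.1 CPM in the MLL1 KD cells, every KD library below every control library. Its log2 fold change was -0.41 ± 0.13 (SE; adjusted p = 0.331, and 0.0157 with the block). RRM1 was at 144, 113 and 114 CPM in the controls and 101, 87.05 and 87.6 CPM after MLL1 KD, likewise without overlap, with -0.42 ± 0.14 (SE; adjusted p = 0.359, and 0.0026 with the block). TK1, the salvage enzyme of thymidine, was at 126, 103 and 110 CPM against 95.04, 82.5 and 84.2 CPM, with -0.37 ± 0.13 (SE; adjusted p = 0.375, and 0.00657 with the block). For each of these 3 genes the exact two-sided permutation test over libraries gave p = 0.1, the smallest value that 3 against 3 libraries allow. In all, 7 members had every KD library below every control library (RFC1, RFC5, POLA1, PRIM2, RRM1, TK1 and LIG1), 17.1% of the members against 9.08% of all genes tested. The partner of RRM1, RRM2, and TYMS did not pass either fit, with log2 fold changes of 0.05 ± 0.23 and -0.09 ± 0.12 (SE).

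The polymerase subunits were uneven within their complexes. POLA1 and POLA2 of polymerase alpha had log2 fold changes of -0.31 ± 0.14 and -0.28 ± 0.17 (SE) and passed with the block, at adjusted p = 0.027 and 0.0418. POLD1, the catalytic subunit of polymerase delta, was at 163, 139 and 147 CPM in the controls and 141, 125 and 111 CPM after MLL1 KD, with -0.25 ± 0.13 (SE; adjusted p = 0.5998, and 0.0482 with the block). POLE, the catalytic subunit of polymerase epsilon, was at 429, 236 and 238 CPM in the controls and 448, 212 and 236 CPM in the KD libraries, so that the spread between replicates far exceeded the difference between the groups, -0.01 ± 0.34 (SE). PRIM2 had the lowest value of the polymerase and primase genes, -0.32 ± 0.15 (SE), with every KD library below every control, but did not pass with the block (adjusted p = 0.106). POLD2, POLD3 and POLE2 were at 0.17, -0.15 and -0.15 and passed neither fit. PRIM1 was at 99.3, 106 and 94.5 CPM against 78.5, 113 and 94.6 CPM, at -0.07 ± 0.15 (SE). Of the origin licensing genes none passed either fit, their log2 fold changes running from -0.40 for ORC6 to 0.06 for CDC6. The single-strand binding subunits lay between -0.16 for RPA1 and 0.30 for RPA3, and FEN1 and LIG1, which finish Okazaki fragments, were at -0.05 and -0.19, without passing either fit.

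**Figure D3:**
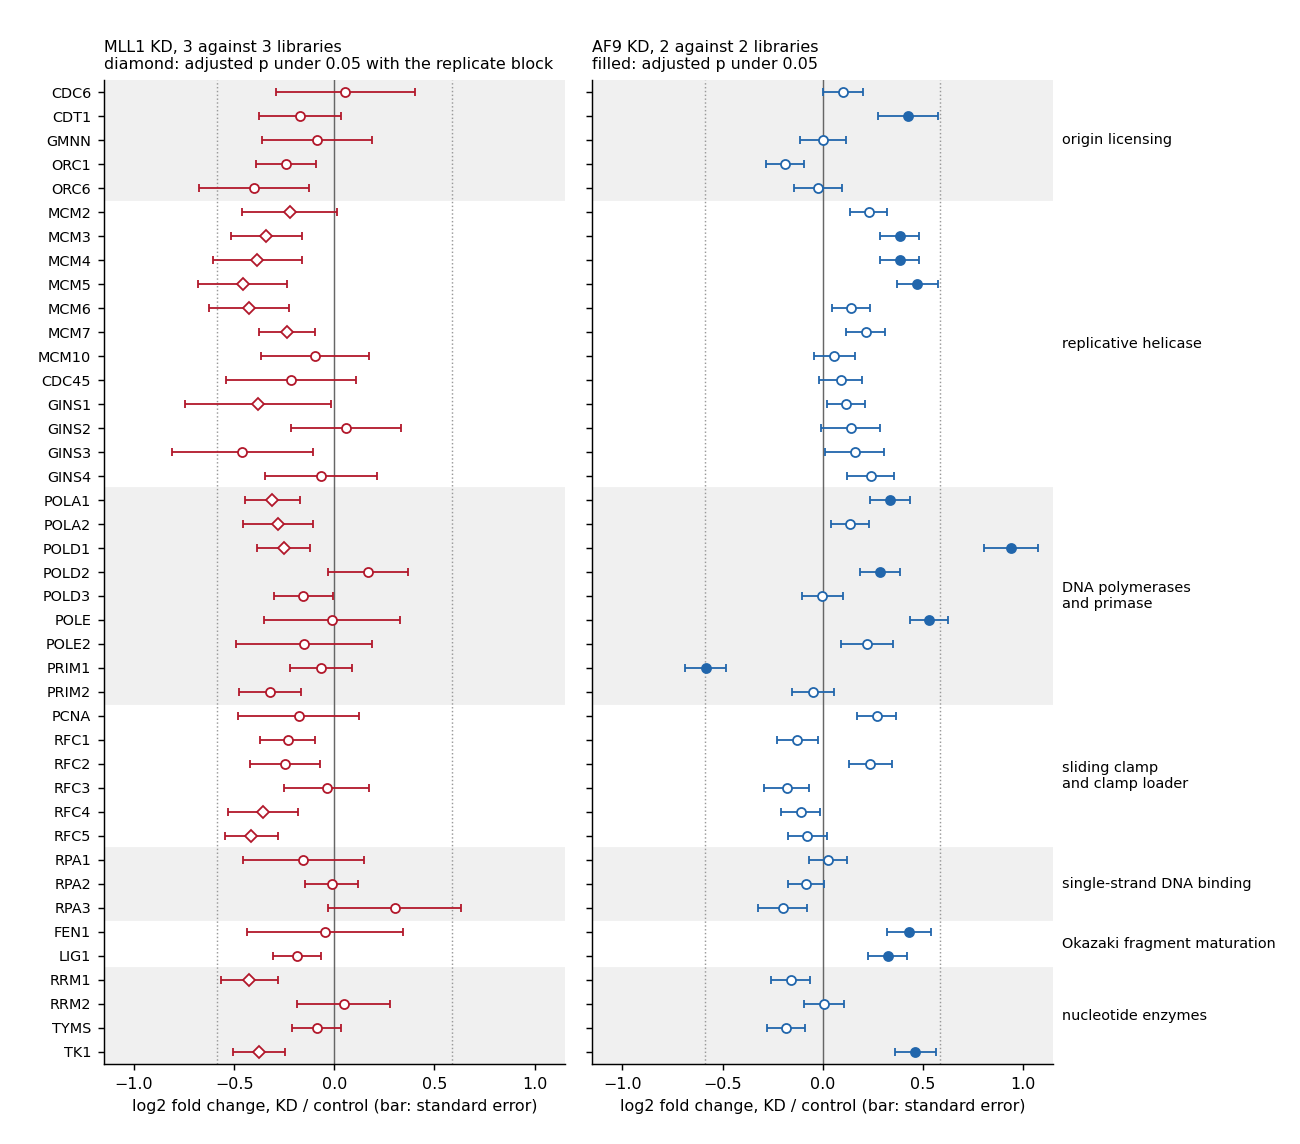
Log2 fold change of each of the 41 genes with its standard error, grouped by role, in MLL1 KD cells on the left and AF9 KD cells on the right, where dotted lines mark a fold change of 1.5, filled symbols an adjusted p under 0.05, and diamonds on the left an adjusted p under 0.05 with the replicate number as a block. On the left 36 of 41 values lie below 0 and 14 are diamonds with none filled, and on the right 28 values lie above 0, 11 of the 12 filled symbols are higher and PRIM1 is the filled one that is lower.

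In AF9 KD cells replication genes moved in both directions, with more rises than falls. Of the 41 genes, 11 rose and 1 fell at an adjusted p under 0.05, and 29 did not pass. The rises were 26.8% of the members against 14.4% of all 13331 genes tested, and the fall was 2.44% against 14.6%. A fold change of at least 1.5 was reached by POLD1 alone, which is 2.44% of the members where 13.1% of all genes tested were called. Omitting either control library leaves 1 control, so only effect sizes are given for those fits. Without control replicate 1 the log2 fold changes of POLD1, CDT1 and PRIM1 were 0.717, 0.217 and -0.549. Without control replicate 2 they were 1.196, 0.661 and -0.618. With all libraries the median log2 fold change of the 41 genes was 0.14, against 0.01 over all genes tested. Both KD libraries lay above both control libraries for 21 members, 51.2% against a background of 32.8%, and below them for 9 of the 41 members, against 33.2%.

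Among the members, POLD1 rose most. It was at 50.8 and 70.8 CPM in the control cells and at 110 and 123 CPM in the AF9 KD cells, both KD libraries being well above both controls. This is a 1.92-fold higher level (log2 fold change 0.94 ± 0.13, SE; adjusted p = 0.000299). POLE was at 107 and 114 CPM in the controls and 152 and 168 CPM after AF9 KD, with 0.53 ± 0.10 (SE; adjusted p = 0.00145). The 2 catalytic subunits of the fork polymerases thus rose by 1.92-fold and 1.44-fold, and POLA1 of polymerase alpha rose by 1.26-fold, with 0.34 ± 0.10 (SE; adjusted p = 0.0211). The smaller subunit POLD2 rose by 0.29 ± 0.10 (SE; adjusted p = 0.0468). POLD3, POLE2, POLA2 and PRIM2 did not pass, with log2 fold changes from -0.05 to 0.22. PRIM1, the catalytic primase subunit, was the one member that fell. It was at 152 and 145 CPM in the controls and 107 and 90.9 CPM after AF9 KD, with a log2 fold change of -0.58 ± 0.10 (SE; adjusted p = 0.00115), a 1.499-fold lower level that lies just short of the call. Of the 31-base stretches of their transcripts, 30.2% for PRIM1 and 11.6% for POLD1 also occur in another annotated gene record, so that reads there may have been lost or shared in counting. The shares for POLA2 and PRIM2 are 60.2% and 44.8%, and their counts are uncertain for that reason.

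All 12 genes of the helicase had log2 fold changes above 0 in AF9 KD cells, from 0.06 for MCM10 to 0.47 for MCM5, and 3 of them rose past the test. MCM5 was at 145 and 171 CPM in the controls and 226 and 212 CPM in the AF9 KD cells, without overlap, with 0.47 ± 0.10 (SE; adjusted p = 0.00397). MCM3 and MCM4 both rose by 0.38 ± 0.10 (SE; adjusted p = 0.00915 and 0.00977). MCM6, at 344 and 341 CPM against 395 and 359 CPM, did not pass, with 0.14 ± 0.10 (SE; adjusted p = 0.291). GINS3 was at 16.4 and 14.7 CPM against 17.9 and 16.8 CPM, at 0.16 ± 0.15 (SE). The licensing factor CDT1 rose by 0.43 ± 0.15 (SE; adjusted p = 0.0471), while CDC6, GMNN, ORC1 and ORC6 lay between -0.19 and 0.10 and did not pass.

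Of the enzymes, TK1 rose from 92.9 and 110 CPM to 139 and 140 CPM, with 0.46 ± 0.10 (SE; adjusted p = 0.00439), and both genes of Okazaki fragment maturation rose, the flap endonuclease FEN1 by 0.43 ± 0.11 and the ligase LIG1 by 0.32 ± 0.10 (SE; adjusted p = 0.00902 and 0.025). RRM1, at 247 and 236 CPM against 231 and 202 CPM, and RFC5, at 74.2 and 77.3 CPM against 70.98 and 72.7 CPM, had both KD libraries below both controls but did not pass, with -0.16 ± 0.10 and -0.08 ± 0.10 (SE). RRM2 and TYMS were at 0.00 and -0.18, and the clamp PCNA at 0.27 ± 0.10 (SE; adjusted p = 0.0577). With 2 against 2 libraries an exact permutation test cannot go below p = 0.3333, which every one of the 9 members given by library reached.

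**Figure D4:**
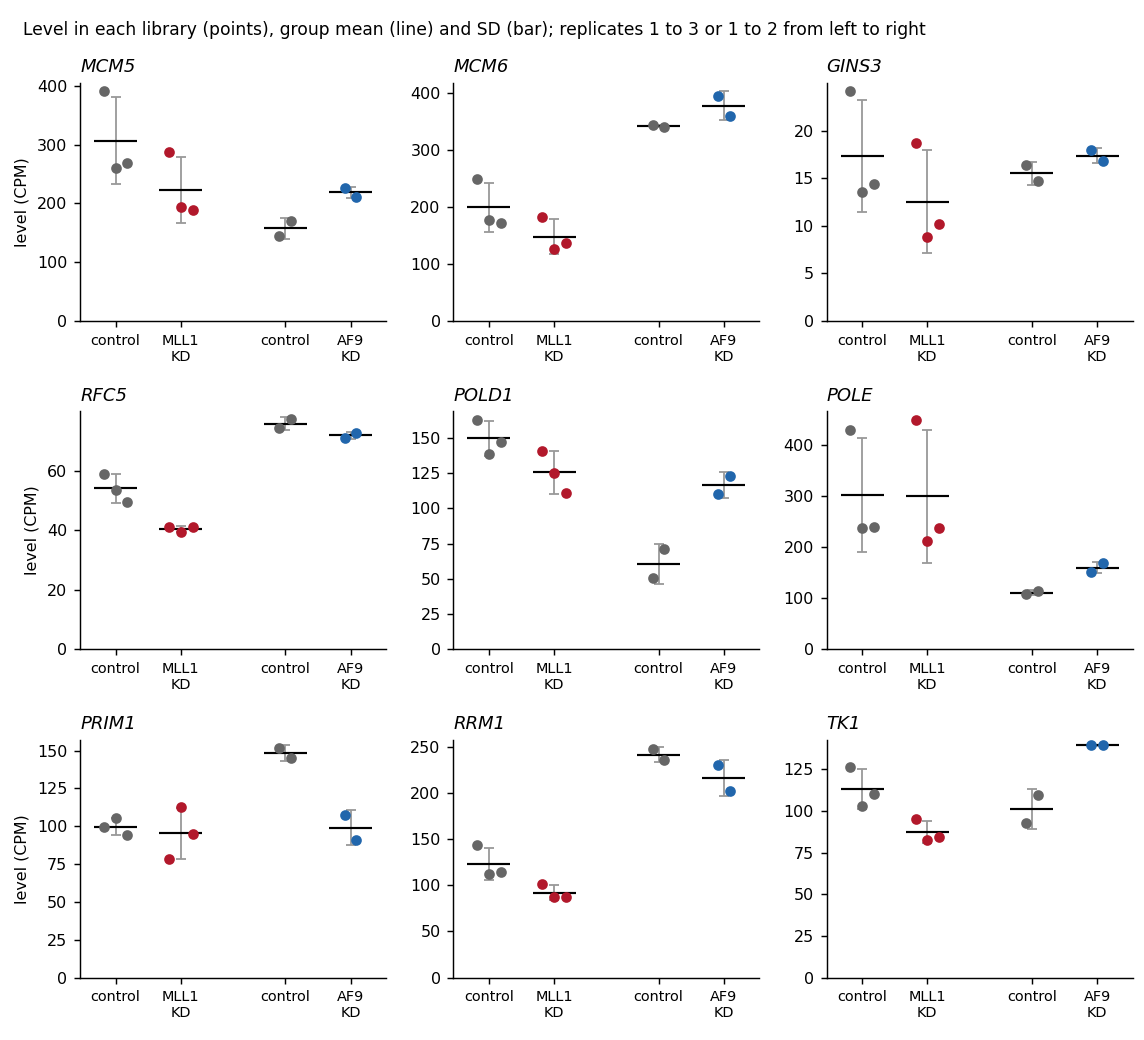
Level in CPM of the 9 members with the largest changes, one panel per gene with the axis starting at 0, where each point is a library, the line is the group mean and the bar the SD. MCM5, MCM6 and GINS3 show replicate 1 on top in both groups of the MLL1 experiment, the groups of RFC5, RRM1 and TK1 do not overlap there, and in the AF9 experiment POLD1 goes from 50.8 and 70.8 to 110 and 123 CPM and PRIM1 from 152 and 145 to 107 and 90.9 CPM.

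GC content moved with the AF9 results. Across the 13041 tested genes with an annotated sequence, the Spearman correlation between the GC content of the exons and the log2 fold change in AF9 KD cells was 0.48, and across the 41 members it was 0.58, where each point is a gene measured in the same 4 libraries. In MLL1 KD cells the same values were -0.07 and 0.05. Of the members that rose, GC content was 64.8% for POLD1, 64.3% for CDT1, 62.1% for TK1, 50.6% to 55.5% for POLE, MCM5, MCM3, FEN1, LIG1 and POLD2, 46.8% for MCM4 and 39.8% for POLA1, against a median of 47.8% for the members and 47.6% for all genes tested, and PRIM1 is at 42.5%. When each library was given an offset that removes its trend with GC content, 11 members again rose, 26.8% against a background of 12.2%, and PRIM1 again fell, where 14.2% of all genes tested did, but 8 of the 12 passing genes were shared between both fits. CDT1, LIG1, POLD2 and TK1 no longer passed, and CDT1 and TK1 went to -0.18 and -0.01. GINS1, MCM6, PCNA and POLE2 passed instead, at 0.25, 0.27, 0.36 and 0.39. POLD1 was 1.25-fold higher with the offsets (log2 fold change 0.32 ± 0.09, SE; adjusted p = 0.0165) and no longer reached a fold change of 1.5. FEN1, MCM3, MCM4, MCM5, POLA1, POLE and PRIM1 passed in both fits, with POLA1 at 0.50, MCM4 at 0.45, MCM3 and POLE at 0.37, FEN1 at 0.33, MCM5 at 0.32 and PRIM1 at -0.45. The median of the members with the offsets was 0.12.

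**Figure D5:**
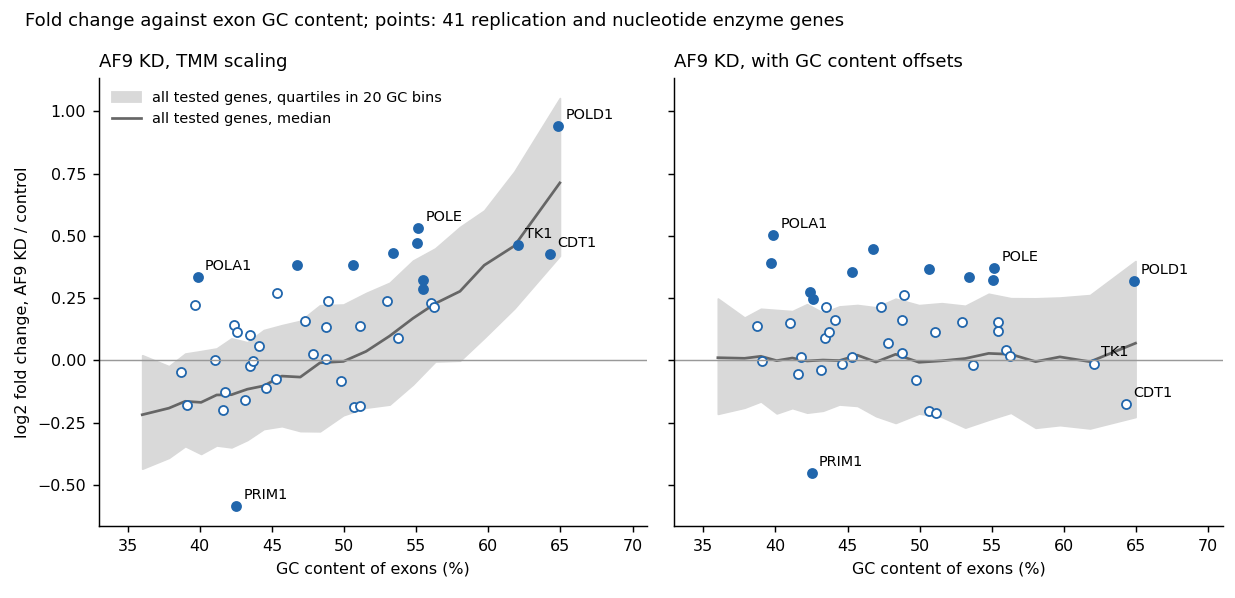
Log2 fold change in AF9 KD cells against the GC content of the exons in percent, as fitted with TMM scaling on the left and with GC content offsets on the right, where points are the 41 genes (filled at an adjusted p under 0.05), the grey line is the median and the band the quartiles of all tested genes in 20 bins. On the left the line climbs with GC content and POLD1, TK1 and CDT1 sit at its upper end at 0.94, 0.46 and 0.43, and on the right, where the line is flat, they sit at 0.32, -0.01 and -0.18 while PRIM1 stays low at -0.45.

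Whether a member responded differently to the 2 knockdowns was tested as the difference between the AF9 KD effect and the MLL1 KD effect, each against its own controls. Of the 41 genes 35 had a difference above 0, and for 24 the MLL1 KD value was below 0 while the AF9 KD value was above it. In the unpaired fit, POLD1 passed, with a difference of 1.17 ± 0.23 (SE; adjusted p = 0.0459), from -0.25 after MLL1 KD and 0.94 after AF9 KD. This is 1 of 41 members, 2.44%, against 1.35% of all 12729 genes tested. An unadjusted p under 0.05 was found in this edgeR fit for 9 of the 41 members and for 2208 of all genes tested. With single libraries left out the difference for POLD1 was 0.955 to 1.42. Of the fits without 1 MLL1 library, it kept the call only without MLL1 KD replicate 1. In the others just 3 to 26 of all genes tested were called higher and 8 to 48 lower. POLD1 also lost the call with the GC content offsets, where the difference was 0.58 (adjusted p = 0.332). With the replicate number as a block, 17 members passed with a higher effect in AF9 KD cells, 41.5% against 12.0% of all genes tested, and PRIM1 passed with a lower one. Among the 17, MCM5 differed by 0.92 ± 0.12, TK1 by 0.82 ± 0.13, MCM4 by 0.77 ± 0.10, MCM3 by 0.70 ± 0.10 and POLA1 by 0.63 ± 0.13 (SE). The difference for PRIM1 was -0.52 ± 0.14 (SE; adjusted p = 0.0116).

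Genes around the fork were counted on lists of their own. Of 32 tested replication partners (origin firing kinases, fork and chromatin factors), 7 rose and 5 fell in AF9 KD cells, with a median of 0.09. Here and for the next lists the shares of all genes tested are 14.4% higher and 14.6% lower, so that the falls of the replication partners are close to the background. The alternative clamp loader subunit CHTF18 rose by 1.47 ± 0.22, the maintenance methylation factor UHRF1 by 0.98 ± 0.11 and the helicase RECQL4 by 0.96 ± 0.12 (SE; adjusted p = 0.000377, 6.491e-05 and 0.000142). With GC content offsets these were 0.75, 0.79 and 0.32. In the nucleotide supply list, 9 of 32 genes rose and 3 fell, with a median of 0.03. Deoxycytidine kinase (DCK) fell from 155 ± 9.43 to 72.8 ± 3.604 CPM (SD, n = 2; log2 fold change -1.09 ± 0.10, SE; adjusted p = 1.158e-05), while the purine synthesis enzymes PFAS and IMPDH1, the guanylate kinase GUK1 and the dNTP hydrolase SAMHD1 rose by 0.97, 0.67, 0.60 and 0.62. With the offsets IMPDH1 and GUK1 no longer passed, at 0.19 and 0.10.

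Of the 30 tested regulators of S phase entry, 6 rose and 7 fell in AF9 KD cells, with a median of -0.01. The E2F family member E2F4 and the E2F partner TFDP1 rose by 0.76 and 0.71, and cyclin D2 (CCND2) and the S phase kinase CDK2 fell by 0.77 and 0.74 on the log2 scale (adjusted p between 0.000127 and 0.000359). With GC content offsets E2F4 was at 0.45 and no longer called, and TFDP1, CCND2 and CDK2 were at 0.70, -0.72 and -0.74. CDK2 was at 133 ± 0.147 CPM in the controls and 79.1 ± 3.35 CPM in the AF9 KD cells (SD, n = 2). Of 19 tested genes of the replication stress response 3 rose and 2 fell, PARP2 falling by 0.59 and, with the offsets, being at -0.47 and no longer called. Mitosis genes, which follow S phase in the cell cycle and served as the comparison for the same dividing cells, moved the other way: 19 of 35 fell and 1 rose, with a median of -0.27. CDC25C, CDK1, TTK and BUB1 were called, with log2 fold changes of -0.80, -0.79, -0.71 and -0.63, and the gene that rose was separase (ESPL1), at 0.39. The median exon GC content of this list was 46.8%, close to that of the members, and with the offsets 21 fell, none rose and the median was -0.28, where 14.2% of all genes tested fell. With the offsets CDC25C alone stayed called, CDK1, TTK and BUB1 being at -0.56, -0.56 and -0.47. The difference between the members and the mitosis genes was not itself tested.

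In MLL1 KD cells no gene of these lists passed the unpaired edgeR fit, and with DESeq2 1 nucleotide supply gene passed. In the edgeR fit 0 replication partners, 1 nucleotide supply gene and 1 regulator of S phase entry had an unadjusted p under 0.05. So did 4 of 20 genes of the stress response and 4 of 35 mitosis genes, where 1435 of all 14393 genes tested did. The medians of the lists were -0.10 for the replication partners, -0.04 for nucleotide supply, -0.01 for the regulators of S phase entry, -0.11 for the replication stress response and 0.05 for the mitosis genes. With the replicate number as a block, 1 replication partner fell, 2 nucleotide supply genes fell and 3 rose, 4 regulators of S phase entry fell and 3 rose, 4 genes of the stress response fell, and 4 mitosis genes fell and 1 rose, where 6.94% of all genes tested fell and 6.64% rose. In replicates 2 and 3 alone 15 mitosis genes rose and 3 fell, with a median of 0.10, where 9.27% and 9.00% of all genes tested did. The median deviation of the mitosis genes from the control mean was -0.17 in MLL1 KD replicate 1 and 0.14 and 0.18 in replicates 2 and 3. Of the genes past the test with the block, 2 reached a fold change of 1.5: the UMP/CMP kinase CMPK1 rose from 111 ± 12.6 to 180 ± 3.15 CPM (SD, n = 3; log2 fold change 0.71 ± 0.09, SE; adjusted p = 2.042e-05), and cyclin D1 (CCND1) fell by 0.61 ± 0.19 (SE; adjusted p = 0.0391), from 16.5 ± 14.9 to 10.96 ± 10.7 CPM, where the spread between replicates is nearly as large as the level.

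Of the 35 members with a promoter window, the 28 with an E2F match had a median log2 fold change of -0.23 after MLL1 KD and 0.14 after AF9 KD. Members with a window but no E2F match had medians of -0.22 and 0.09, and members without a window are in neither group. Among those printed above, POLD1, which holds neither form, rose most in AF9 KD cells, and PRIM1, which holds both, was the member that fell past the test. With GC content offsets POLE, which also holds both, was at 0.37, POLD1 at 0.32 and PRIM1 at -0.45. A relation between these forms and the fold changes was not tested.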

How the data were processed

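RNA-seq libraries of HEL cells were analysed from the deposited tables of counts per gene. Per the labels and the study's methods, the authors filtered reads with fastp 0.13.1, aligned the remainder to hg38 by strand with HISAT2 2.1.0, and used featureCounts 1.6.1 to count reads per gene. The annotation behind the gene symbols is not given in the sources used here. Columns of 10 libraries were used. Genes whose TPM averaged 1 or more across the libraries of an experiment were tested with the quasi-likelihood test of edgeR 4.0.16 (TMM factors, Benjamini-Hochberg adjustment over all genes tested) in R 4.3.3. A gene without an annotated exon length was kept at a mean CPM of 1 or more instead. A gene passed at an adjusted p under 0.05 and was called when the fold change was also at least 1.5. DESeq2 1.42.0, other scalings and filters, GC content offsets (lowess span 0.3), a replicate block and the omission of each library were alternatives, and counts of members by adjusted p alone under each of these were added after seeing the data. The SE printed for an edgeR log2 fold change is its absolute value divided by the square root of the F statistic of that test. Log2 CPM used a prior count of 2. Exon length and GC content came from GENCODE version 44, with 25237 of 28103 symbols matched directly and 729 through an older symbol. Summaries and figures used Python 3.11.15, pandas 2.3.3, numpy 2.4.6, scipy 1.17.1 and matplotlib 3.10.9.

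Replicate numbers come from the library titles. In the MLL1 experiment the deviations from the group means of same-numbered libraries correlated at 0.648, 0.326 and 0.352 over genes. Across numbers, control 2 and MLL1 KD 3 correlated at 0.369 and control 3 and MLL1 KD 2 at 0.359. Only replicate 1 was thus matched by these values. The numbers were still taken to pair the libraries, and the blocked values are given beside the unpaired ones. Counting error is small at these depths, 6966345 to 14232408 counts per library, except for GINS3 and RPA3 in the MLL1 experiment. Members given library by library are those called in either experiment and the 5 with the largest change in each. Up to 6 called genes per other list were named, with separase named after its value was seen. The members and the gene lists were chosen with earlier results of these data known. Scripts were tested on simulated counts. Protein sequences were not analysed here. The series holds 92 samples in all, and those of its other assays were not analysed here. A planned marker gene of another cell type is not reported here and is in none of the sums.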

Additional observations from a re-analysis of the deposited data

Results flagged for a closer look

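POLD1, the catalytic subunit of DNA polymerase delta, was the one member to pass the direct test of a difference between the 2 knockdowns in the unpaired edgeR fit. Of the fits without 1 MLL1 library, it passed only without MLL1 KD replicate 1. Its difference was 0.955 to 1.42 with single libraries left out. With the replicate block 18 members passed that test, and with DESeq2 4. The log2 fold change in AF9 KD cells minus that in MLL1 KD cells was 1.17 (edgeR, adjusted p = 0.0459), and 1.19 with the replicate block (adjusted p = 2.37e-05). With GC content offsets it was 0.58 (adjusted p = 0.332).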

How the results depend on the processing

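In the MLL1 experiment no member was called under any alternative, where with the block 361 of all genes tested were called lower and 319 higher. With the replicate block 14 members fell at an adjusted p under 0.05, with the block and GC content offsets 12, and in replicates 2 and 3 alone 17, against 0 in the unpaired fit. Of all 14393 genes tested, 999, 991, 1296 and 5 fell in these fits, in that order. Omitting single libraries moved the members' median log2 fold change from -0.42 to -0.08 (without MLL1 KD replicate 1 and without control replicate 1), a change of over 1.5 times at both ends.

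In the AF9 experiment 2 members were called with total counts, without the filter beyond 1 count, with filterByExpr and with the replicate block (same-numbered libraries share only a number there). Of all 13331 genes tested, 1415 were called higher and 440 lower with total counts, and 1220 and 737 with the block. Without the filter it was 1168 and 787 of 18572, and with filterByExpr 1133 and 704 of 13141. With no fold change threshold 12 members passed, where 1922 of all genes were higher and 1940 lower. The called members numbered 0 with GC content offsets, with GC content offsets and the block, and at a fold change of 2. With the offsets 495 of all genes were called higher and 567 lower, and with the offsets and the block 566 and 609. Omitting a single library leaves 1 library in a group, so only effect sizes are given for those fits. Across them POLD1 was at 0.717 to 1.196, CDT1 at 0.217 to 0.661 and PRIM1 at -0.706 to -0.466. With the block 17 members passed, 16 higher and 1 lower, where 2749 of all 13331 genes tested were higher and 2697 lower. In both directions together the members' share was thus close to that of all genes tested. The members' median was 0.22 with total counts, a scaling that moves the median of all genes to 0.10, and 0.11 for the difference.

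For the difference, the called members numbered 1 in the unpaired fit, 3 with DESeq2, 2 with total counts, 8 with the replicate block, 0 without the filter and 0 with GC content offsets, and those past adjusted p numbered 1 in the unpaired fit, 4 with DESeq2, 2 with total counts, 18 with the replicate block, 0 without the filter and 0 with GC content offsets. Of all 12729 genes tested, 73 were called higher and 99 lower in the unpaired fit, 357 and 390 with DESeq2, and 1060 and 885 with the block. With total counts it was 110 and 50, with GC content offsets 19 and 33, and without the filter 28 and 47 of 17526. Past adjusted p with the block, 1528 of all genes were higher and 1577 lower. The members called with DESeq2 and with the block were all higher. Without MLL1 KD replicate 1 there were 7 of either, where 416 of all genes tested were called higher and 528 lower. Omitting any other single MLL1 library gave fewer.

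In the AF9 experiment 8 members changed direction with GC content offsets and 5 with total counts. The values below are those of members named by rule or past a test. In the MLL1 experiment POLE was at 0.025 with GC content offsets, at 0.0022 with these and the block, and at -0.43 to 0.33 when single libraries were omitted. PRIM1 was at 0.041 in replicates 2 and 3 alone and at -0.21 to 0.053 with single libraries omitted, FEN1 at -0.58 to 0.30, CDT1 at -0.31 to 0.0064 and POLD2 at -0.051 to 0.31. In the AF9 experiment CDT1 was at -0.18 with GC content offsets with or without the block, TK1 at -0.013 without the block and -0.016 with it, and RFC5 at 0.012 and 0.011 with these and at 0.012 with total counts. For the difference CDT1 was at -0.0004 and POLD2 at -0.095 with GC content offsets, and POLD2 at -0.035 to 0.31 with single libraries omitted. The causes were not tested. Counts limit GINS3 and RPA3 in the MLL1 experiment, and 2 or 3 libraries per group limit the rest.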
